A study of Mus musculus with 4 samples.

Results

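Glycolysis enzymes were examined in mouse stomach through the array probes that the platform annotation assigns to exactly 1 gene symbol, where that symbol was Hk1, Hk2, Gpi1, Pfkl, Aldoa, Tpi1, Gapdh, Pgk1, Pgam1 or Ldha. Of these 10 genes, 8 had such a probe, with 1 probe each, among the 33012 probes of the table. Gpi1 and Pfkl had no probe of a single symbol and were not analysed here. The probes of 7 genes (Hk1, Hk2, Aldoa, Gapdh, Pgk1, Pgam1 and Ldha) had a value on all 4 arrays, as did 13475 probes in all, and these 7 were compared between the strains. Tpi1, which interconverts the triose phosphates made by aldolase, had a value on 1 array only, congenic pool 1, where it read 10.15 on the log2 scale. A blank was not read as an absent transcript.

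The study set male mice of the homozygous congenic strain B6.CAST-17 against male wild-type C57BL/6J mice. The congenic strain's name points to a piece of CAST chromosome 17 placed in the B6 genome, and no other allele or treatment separates the groups in the labels. All animals were fed chow and then went 4 h without food, starting in the light period, before the stomach was frozen, and no source used here gives ages. Each strain was measured as 2 pools of total RNA with 3 animals in each pool, so every value is an average over 3 mice and the differences between single mice are not seen. None of the 8 glycolysis genes with a probe lies on chromosome 17. Every difference is the congenic mean less the wild-type mean in log2 units, where 1 unit is a doubling, with n = 2 pools per strain. The p-values rest on the spread between pools, moderated in limma by the spread of other probes. They do not cover the spread between single mice.

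Glycolysis splits glucose into pyruvate in the cytosol and yields ATP without oxygen. Hexokinases trap glucose as glucose 6-phosphate, aldolase splits the phosphorylated sugar, glyceraldehyde 3-phosphate dehydrogenase and phosphoglycerate kinase make NADH and ATP, and lactate dehydrogenase returns NADH to NAD by reducing pyruvate. Every cell type of the stomach wall uses the pathway, and Gapdh is also widely used as a reference transcript in RNA measurements.

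The promoters of glycolysis genes are a classic setting for the hypoxia-inducible factors, whose core recognition letters include ACGTG. Only ACGTG was searched, and the related form GCGTG was not counted. Promoter stretches of 3 members are shown because the results turn on Gapdh, the member that varied most, set against Ldha and Pgk1, which are textbook targets of these factors. Each stretch is the 250 bases before a RefSeq start site in build GRCm38.p6, read along the gene's strand, with matches to ACGTG on either strand in capitals. Gapdh is at chr6:125165774-125166023 on the minus strand. Ldha is at chr7:46845554-46845803 on the plus strand, the upstream of its 2 starts in the table. Pgk1 is at chrX:106186850-106187099 on the plus strand.
Gapdh: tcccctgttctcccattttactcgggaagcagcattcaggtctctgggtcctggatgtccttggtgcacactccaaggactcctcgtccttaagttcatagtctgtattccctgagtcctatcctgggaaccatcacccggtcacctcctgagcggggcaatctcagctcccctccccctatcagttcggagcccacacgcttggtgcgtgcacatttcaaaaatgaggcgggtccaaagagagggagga
Ldha: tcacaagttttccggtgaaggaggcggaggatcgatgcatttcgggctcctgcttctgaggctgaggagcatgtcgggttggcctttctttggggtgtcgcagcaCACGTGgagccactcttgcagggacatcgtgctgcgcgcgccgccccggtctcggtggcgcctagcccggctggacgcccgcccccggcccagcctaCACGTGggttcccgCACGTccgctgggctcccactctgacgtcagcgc
Pgk1: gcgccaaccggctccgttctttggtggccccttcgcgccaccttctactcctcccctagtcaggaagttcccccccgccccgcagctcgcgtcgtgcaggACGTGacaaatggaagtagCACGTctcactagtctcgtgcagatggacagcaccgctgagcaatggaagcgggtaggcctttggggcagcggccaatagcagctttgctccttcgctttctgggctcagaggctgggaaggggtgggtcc
The Ldha stretch held 5 matches, counting a CACGTG once on each strand, and its other start held 0. Pgk1 and Hk2 held 2 each, and Pgam1 held 1. Aldoa held 1 at each of 2 of its 3 starts, which overlap. Gapdh and both starts of Hk1 held 0, as did Gpi1, Pfkl and Tpi1. In all, 5 of 10 genes held a match in at least 1 stretch, against 18.5% of 27025 genes in the RefSeq table, and 16.6% of all 32851 stretches held one. These are matches of letters and not measured binding sites. Because GCGTG was not counted, a count of 0 does not mean that a stretch lacks recognition letters of these factors.

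The arrays were alike for most probes, but wild-type pool 1 stood apart on some, and 2 glycolysis enzymes were among them. On this array 140 of 13475 probes (1.04%) lay more than 1 log2 below the mean of the other 3 arrays and 36 (0.267%) lay that far above it. The share that low was 0.245% for congenic pool 1, 0.275% for congenic pool 2 and 0.527% for wild-type pool 2. Of the 7 glycolysis enzymes, 2 lay that far below on wild-type pool 1, Gapdh and Hk1, and 0 lay that far above. Results are therefore given with and without this array where it changes them.

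Gapdh, which oxidises glyceraldehyde 3-phosphate, read 19.09 and 19.06 in congenic pools 1 and 2, 16.05 in wild-type pool 1 and 18.88 in wild-type pool 2. Wild-type pool 1 was the low sample, and the other 3 arrays lay within 0.22 of one another. It lay 2.95 below their mean on the log2 scale (-2.95), a 7.75-fold lower signal, and only 9 of the 13475 probes lay further below. The strains did not overlap, with both congenic pools above both wild-type pools. The means were 19.08 ± 0.024 (SD, n = 2) in the congenic pools and 17.46 ± 1.99 in wild type. The difference was 1.61 ± 0.82 (SE) and did not pass (limma adjusted p = 0.3951). Its 95% interval ran from -0.40 to 3.62. Without wild-type pool 1 the difference was 0.20. Without wild-type pool 2, which leaves the low array alone on the wild-type side, it was 3.02. Gapdh has many processed pseudogenes of near-identical sequence, and whether its probe also reads them was not examined.

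The hexokinases did not share a pattern. Hk1, the constitutive hexokinase of most tissues, read 14.69 and 14.61 in the congenic pools, 12.97 in wild-type pool 1 and 14.67 in wild-type pool 2. Here too wild-type pool 1 was the low sample, 3.21-fold below the mean of the others (-1.68), which lay within 0.075 of one another. The strains overlapped, because wild-type pool 2 lay between the congenic pools. The difference was 0.83 ± 0.50 (limma adjusted p = 0.4599, 95% interval -0.39 to 2.04). It was -0.017 without wild-type pool 1. It was 1.67 without wild-type pool 2, which leaves the low array alone on the wild-type side.

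Hk2, the inducible hexokinase that dominates in insulin-responsive tissue, read 13.54 and 13.45 in the congenic pools and 13.30 and 13.12 in the wild-type pools. The congenic pools lay above both wild-type pools, and wild-type pool 1 was not the lowest array. The difference was 0.28 ± 0.11, a ratio of 1.22, and it did not pass (limma adjusted p = 0.295, unadjusted p = 0.03866, 95% interval 0.021 to 0.55). Without wild-type pool 1 it was 0.37.

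**Figure D1:**
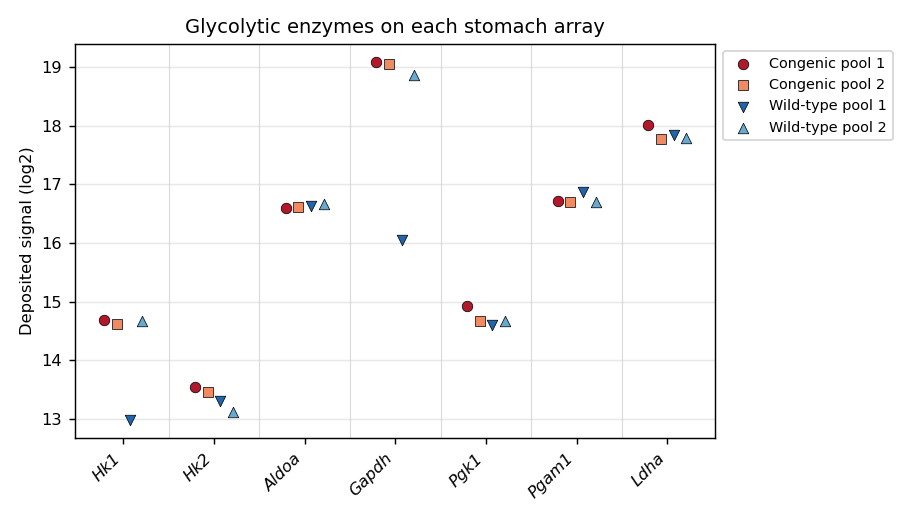
Deposited signal (log2, vertical axis) of 7 glycolysis enzymes on each of the 4 arrays, 1 point per pool. Wild-type pool 1 lies at 16.05 for Gapdh and 12.97 for Hk1, well under the other arrays, while the points of the other 5 enzymes lie within 0.42 of one another. Heights of different genes come from different probes and are not comparable.

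The enzymes downstream of the hexokinases, other than Gapdh, ranged over 0.063 to 0.32 across the arrays, where the median range was 0.25 over probes at least as bright as the dimmest member. Aldoa, the aldolase of muscle and most other tissues, read 16.61 on both congenic arrays and 16.64 and 16.67 on the wild-type arrays. Its range over the 4 arrays, 0.063, was among the narrowest, with 1.21% of compared probes at or below it. The congenic pools lay below both wild-type pools, yet the difference was -0.048 ± 0.067 (limma adjusted p = 0.7513, 95% interval -0.21 to 0.12).

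Pgk1, which makes the first ATP of the pathway, read 14.93 and 14.66 in the congenic pools and 14.61 and 14.67 in the wild-type pools. Congenic pool 1 was the high sample and the strains overlapped. The difference was 0.16 ± 0.11 (limma adjusted p = 0.5062, 95% interval -0.11 to 0.42). Pgam1, which moves the phosphate of phosphoglycerate, read 16.72 and 16.70 in the congenic pools and 16.87 and 16.70 in the wild-type pools. Wild-type pool 1 was the high sample here, by 0.16 above the mean of the others, the opposite side from Gapdh and Hk1. The difference was -0.074 ± 0.082 (limma adjusted p = 0.6871, 95% interval -0.27 to 0.13).

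Ldha, the lactate dehydrogenase subunit that favours lactate formation, read 18.01 and 17.77 in the congenic pools and 17.84 and 17.80 in the wild-type pools. Congenic pool 1 was again the highest and congenic pool 2 the lowest, so the strains overlapped. The difference was 0.070 ± 0.098 (limma adjusted p = 0.7496, 95% interval -0.17 to 0.31). Neither Ldha nor Pgk1, with their 5 and 2 matches to the hypoxia letters, passed the test. Their intervals ran from -0.17 to 0.31 and from -0.11 to 0.42. A response to hypoxia was not tested.

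**Figure D2:**
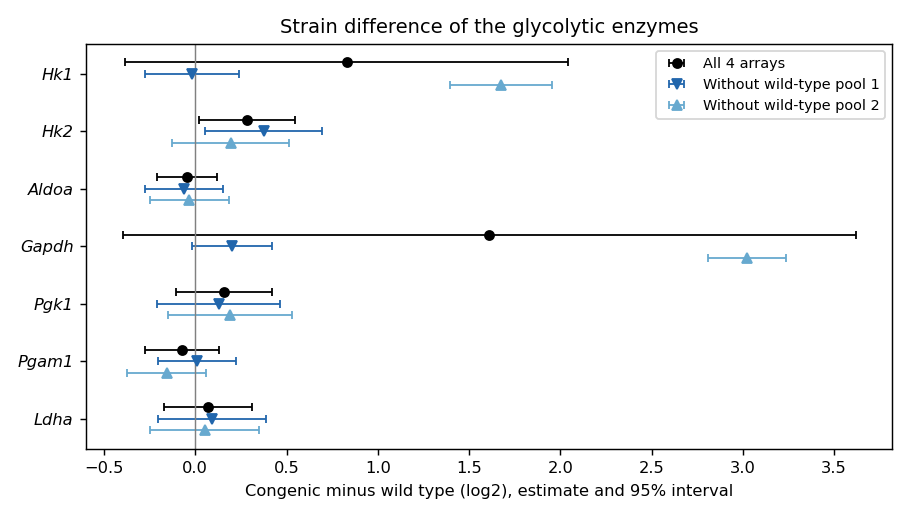
Difference between the strains (congenic minus wild type, log2, horizontal axis) of the 7 enzymes, as the limma estimate with its 95% interval, from all 4 arrays and with either wild-type pool left out. The Gapdh and Hk1 estimates move from 0.20 and -0.017 without wild-type pool 1 to 3.02 and 1.67 without wild-type pool 2. The other 5 stay between -0.16 and 0.37. With either wild-type pool left out, the intervals hold no spread between wild-type pools.

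Across the 7 enzymes, 0 passed an adjusted p of 0.05 in limma, where 64 of 13475 probes (0.475%) did. An unadjusted p under 0.05 was reached by 1, Hk2, against 15.8% of all probes. The strains did not overlap for 3 of 7, Gapdh and Hk2 with the congenic pools higher and Aldoa with them lower, against 49.4% of all probes (23.4% higher and 26.1% lower), so this share is near the background. The differences were positive for 5 and negative for 2, with a median of 0.16, beside -0.0020 over all compared probes. That median was 0.026 when congenic pool 1 was left out, and was 0.29 when congenic pool 2 was. With wild-type pool 2 left out, 2 of 7 passed, Gapdh and Hk1, both higher in the congenic pools, where 168 probes (1.25%) passed, 1.05% of all being higher. With any other pool left out 0 of 7 passed in limma, against 0.453% of all probes without wild-type pool 1.

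The 7 enzymes differed in how far wild-type pool 1 lay from the other arrays. The distance of wild-type pool 1 from the mean of the other arrays was -2.95 for Gapdh and -1.68 for Hk1, and between -0.15 and 0.16 for the other 5. By the size of this distance Gapdh exceeded 99.9% of compared probes and Hk1 99.6%, while the other 5 ranked between 6.06% and 59.7%. Between the congenic pools, in contrast, Gapdh differed by 0.034 and Hk1 by 0.075, under the median of 0.13 over all probes.

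**Figure D3:**
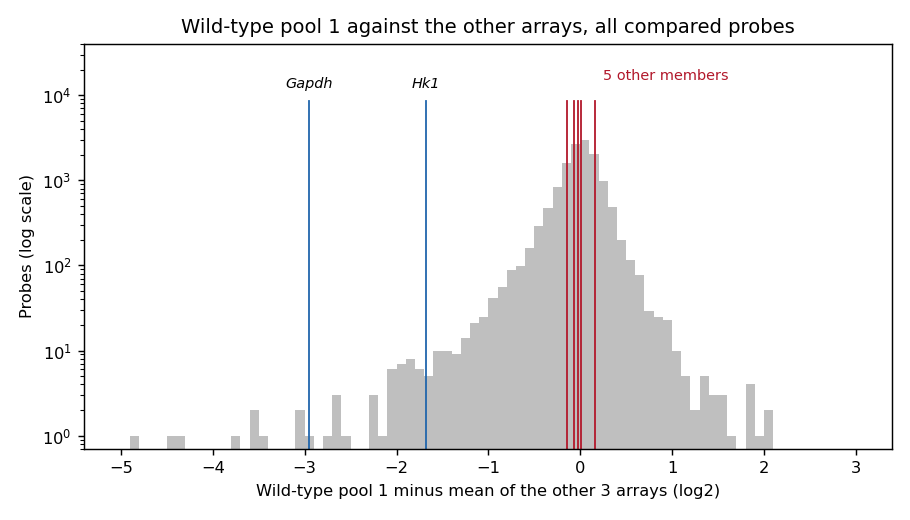
Distance of wild-type pool 1 from the mean of the other 3 arrays (log2, horizontal axis) for all 13475 compared probes, as a histogram with a log vertical axis. Vertical lines mark the glycolysis enzymes, with Gapdh at -2.95 and Hk1 at -1.68 in the sparse left tail and the other 5 between -0.15 and 0.16.

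The named genes whose 4 values most resembled those of Gapdh, after each was centred on its own mean, were Sptbn1, Rpl26, 1110008P14Rik, Gstm2 and Mcrs1. The measure was the root-mean-square distance over the 4 arrays, among 7753 probes of 1 symbol outside the gene lists, and it was 0.067 for Sptbn1 and 0.33 for Mcrs1. Hk1 stood at 0.56 from Gapdh. Sptbn1, a spectrin of the membrane skeleton, read 15.07 and 14.93 in the congenic pools, 11.85 in wild-type pool 1 and 14.72 in wild-type pool 2. Rpl26, a protein of the large ribosomal subunit, read 18.16, 18.23, 15.49 and 18.14 in the same order. Both were low on wild-type pool 1 alone. With 4 arrays, such a likeness rests on that 1 array.

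The low Gapdh value was not shared by 10 other transcripts commonly used as references. They are the members of a list of 15 such genes that had values on all arrays, and their ranges over the 4 arrays lay between 0.13 and 0.56, against 3.04 for Gapdh. Ppia, the isomerase cyclophilin A, read 19.73 and 19.82 in the congenic pools and 19.86 and 19.71 in the wild-type pools. Hprt, a purine salvage enzyme, had the narrowest range of the list. Gusb, a lysosomal enzyme, had the widest and differed by -0.35 ± 0.15 (limma adjusted p = 0.322). Wild-type pool 1 lay between -0.15 and 0.18 from the other arrays across the list. In limma 0 of the 10 passed and 0 reached an unadjusted p under 0.05. Actb, cytoplasmic beta-actin, had no value on wild-type pool 1 although it read 19.69 and 19.61 in the congenic pools and 19.68 in wild-type pool 2. Such a gap was more frequent on that array: of probes averaging at least 14 on the other 3 arrays, 57 of 4144 had no value on wild-type pool 1, against 15 of 4108 on congenic pool 1, 1 of 4104 on congenic pool 2 and 3 of 4093 on wild-type pool 2. The part of these gaps in the Gapdh and Hk1 values was not tested.

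**Figure D4:**
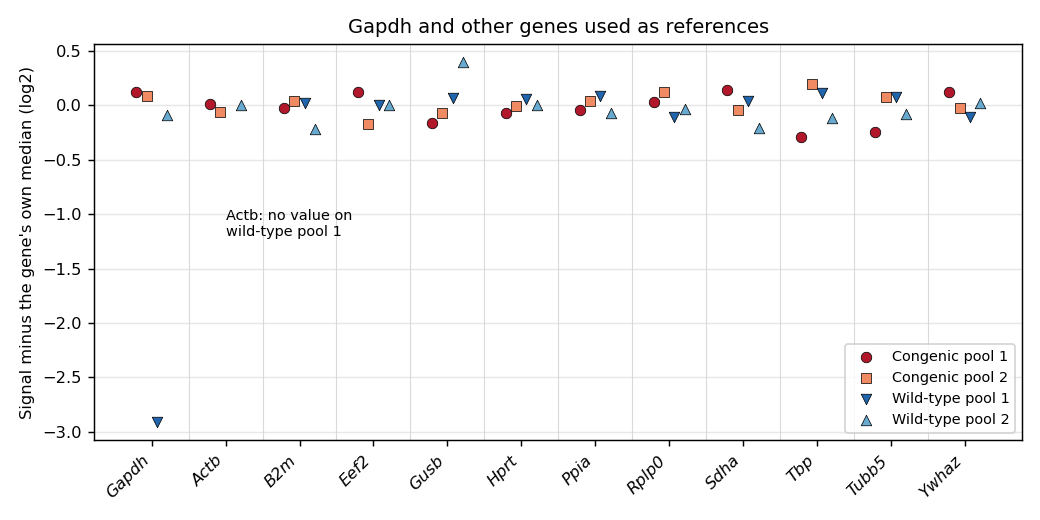
Signal of Gapdh, Actb and 10 other reference genes on each array, relative to the gene's own median over its arrays (log2, vertical axis). Gapdh on wild-type pool 1 stands alone far below, Actb has no point for that pool, and the ranges of the 10 other genes are at most 0.56.

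Other glycolysis enzymes outside the named members gave 6 measured genes of 19, of which 0 passed in limma and 0 reached an unadjusted p under 0.05, with a median difference of -0.14. Ldhb, the lactate dehydrogenase subunit typical of oxidative tissue, read 17.56 and 17.56 in the congenic pools and 17.73 and 17.54 in the wild-type pools, a difference of -0.078 ± 0.087. Aldoc, a brain-type aldolase, differed by -0.20 ± 0.17. Pfkm, the muscle form of the committing phosphofructokinase, read 10.28 and 10.29 in the congenic pools, 11.27 in wild-type pool 1 and 10.40 in wild-type pool 2. Wild-type pool 1 was thus high for Pfkm (0.95 above the mean of the others), where it was low for Gapdh and Hk1. Pfkp, the platelet form, read 10.22 and 10.20 in the congenic pools and 9.39 in wild-type pool 1, and none on wild-type pool 2. Eno2 had a value on 0 arrays, and Eno1, Pkm and the pyruvate carrier gene Mpc1 had no probe of a single symbol.

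Among genes that bring in glucose and fructose, none passed. Of 11 glucose transporter genes 8 were measured, 0 passed in limma and 3 reached an unadjusted p under 0.05 (15.8% of all probes did), with a median difference of -0.14. Slc2a4, the insulin-responsive transporter, read 12.92 and 12.77 in the congenic pools and 13.27 and 13.35 in the wild-type pools, a difference of -0.46 ± 0.11 (limma adjusted p = 0.1773). Slc2a5, a fructose transporter, differed by -0.49 ± 0.12 (limma adjusted p = 0.1827), and Slc2a8 by -0.49 ± 0.19. In both Slc2a4 and Slc2a5 the congenic pools lay below both wild-type pools. Slc2a1, the transporter of most cells, had a value on congenic pool 1 alone (12.02).

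Regulators of the pathway were measured for 6 of 12 genes, with 0 past the threshold in limma, 3 at an unadjusted p under 0.05 (15.8% of all probes) and a median of 0.066. Epas1, a hypoxia-inducible factor subunit and a gene of chromosome 17, read 12.46 and 12.65 in the congenic pools and 11.98 and 12.20 in the wild-type pools (0.46 ± 0.14, limma adjusted p = 0.2391). The hydroxylases that mark these factors for degradation differed the other way, Egln1 by -0.27 ± 0.084 and Egln3 by -0.28 ± 0.098, and neither passed. Hypoxia-induced genes outside glycolysis had 10 of 14 measured, 0 past the threshold in limma, 3 at an unadjusted p under 0.05, against the same 15.8%, and a median of -0.15. Those 3 were Bnip3 (-0.32 ± 0.083), Car9 (-0.26 ± 0.079) and Ndrg1 (-0.33 ± 0.11). Across the 10 measured genes the differences were negative for 7 and positive for 3, the highest being 0.28. A second Bnip3 probe differed by -0.11 ± 0.17. Of the glycolysis enzymes with a match to the hypoxia letters, Hk2 differed by 0.28, Pgk1 by 0.16, Ldha by 0.070, Aldoa by -0.048 and Pgam1 by -0.074 in the same fit.

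Enzymes around pyruvate were measured for 10 of 16 genes, with 0 past the threshold in limma, 2 at an unadjusted p under 0.05 (15.8% of all probes) and a median of -0.037. Pdk4, a kinase that switches off pyruvate dehydrogenase during fasting, read 13.80 and 13.88 in the congenic pools and 14.15 and 14.14 in the wild-type pools (-0.31 ± 0.084, limma adjusted p = 0.2063). Slc16a1, a lactate and pyruvate carrier, read 9.48 and 10.19 in the congenic pools and 10.72 and 10.80 in the wild-type pools. It differed by -0.93 ± 0.31 (limma adjusted p = 0.2563), with the congenic pools further apart than the wild-type pools. Pdk3 differed by -0.12 ± 0.088. In gluconeogenesis, the route back to glucose, 5 of 8 genes were measured, 0 passed in limma, 1 reached an unadjusted p under 0.05, against the same 15.8%, and the median was -0.15. That gene was Pcx, pyruvate carboxylase, at 14.78 and 14.71 in the congenic pools and 15.09 and 15.30 in the wild-type pools (-0.45 ± 0.096, limma adjusted p = 0.1703). Pck1 differed by -0.24 ± 0.13 and G6pc3 by -0.15 ± 0.091. Fbp2, a fructose bisphosphatase, had no value on wild-type pool 1, like Actb, and read 15.01 and 14.95 in the congenic pools and 14.92 in wild-type pool 2.

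Of the pathway lists, the side branches held the single gene that passed. In the pentose phosphate pathway 5 of 8 genes were measured and 0 passed in limma, with 2 at an unadjusted p under 0.05 (Pgls, -0.38 ± 0.092, and Rpia, -0.30 ± 0.10), against 15.8% of all probes, and a median of -0.21. H6pd differed by -0.21 ± 0.087, and its second probe by -0.15 ± 0.16. In glycogen metabolism 10 of 16 were measured, 0 passed in limma, 2 reached an unadjusted p under 0.05, against the same 15.8%, and the median was -0.032. Those 2 were Pygm (-0.67 ± 0.15) and Ugp2, which makes the glucose donor of glycogen (0.25 ± 0.097). Phka2, not among them, differed by -0.31 ± 0.13. Among 6 measured genes of 9 in the glycerol phosphate, fructose and methylglyoxal branches, 1 rose and 0 fell, where 0.475% of all probes passed. Their median was 0.030. Glo1, which clears the methylglyoxal that leaks from triose phosphates, read 14.56 and 14.67 in the congenic pools and 13.87 and 13.91 in the wild-type pools (0.72 ± 0.084, limma adjusted p = 0.03347). It is a gene of chromosome 17, and it lost the call on leaving out any single pool, with adjusted p in limma from 0.05127 to 0.244. Gpd2 differed by 0.21 ± 0.087 and Tkfc by -0.54 ± 0.29.

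Carbohydrate genes typical of skeletal muscle read lower in the congenic pools in some cases and level or higher in others. They were grouped after their values were seen, and none of those compared passed. Pygm, muscle glycogen phosphorylase, read 11.45 and 11.22 in the congenic pools and 12.00 and 12.02 in the wild-type pools (-0.67 ± 0.15, limma adjusted p = 0.1773). Pgam2, the muscle counterpart of Pgam1, read 10.57 and 10.47 against 10.75 and 10.76 (-0.23 ± 0.20, limma adjusted p = 0.6126). Slc2a4 and Pfkm, given above, also read lower in both congenic pools, though the Pfkm difference of -0.55 was -0.12 without wild-type pool 1. Eno3, muscle enolase, read 13.22 and 13.29 in the wild-type pools and had no value on either congenic array. Gys1, the glycogen synthase of muscle, differed by -0.27 ± 0.18 and its strains overlapped. Hk2 lay the other way, with both congenic pools higher (0.28 ± 0.11). Aldoa differed by -0.048 and Fbp2 by 0.057, the latter in a fit that allowed 1 blank. Most skeletal muscle markers were lower in the congenic pools. Of 14 skeletal muscle markers 9 were measured, and 1 other, Pvalb, had a probe without a value on any array. Of the 9 measured, 3 fell and 0 rose, where 0.475% of all probes passed. The congenic pools lay below both wild-type pools for 8 of the 9, against 26.1% of all probes. The strains overlapped for Actn3 (-0.096 ± 0.28). The log2 of their summed signal was 16.33 and 16.37 in the congenic pools and 17.32 and 17.40 in the wild-type pools, and the skeletal actin Acta1 fell by 1.58 ± 0.070 (adjusted p = 0.0009033 in limma). In whole-tissue RNA, fewer cells of a type and less RNA per cell cannot be told apart, and the part of skeletal muscle in these enzyme values was not tested.

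**Figure D5:**
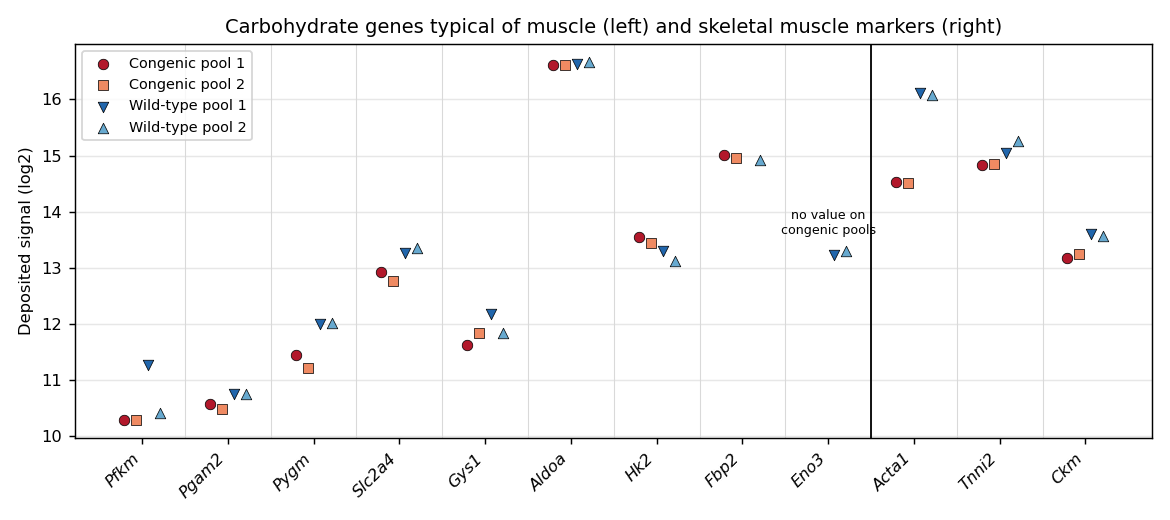
Deposited signal (log2, vertical axis) on each array of 9 carbohydrate genes typical of skeletal muscle, left of the line, and of the 3 skeletal muscle markers with the highest signal, right of it. The congenic points lie under the wild-type points for Pfkm, Pgam2, Pygm, Slc2a4 and the markers, above them for Hk2 and mixed for Gys1. Aldoa lies within 0.063 on all arrays, Eno3 has points in the wild-type pools only and Fbp2 has none for wild-type pool 1.

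Several markers of the stomach itself had a value on every array, including the acid pump subunit Atp4a (19.51 to 19.77), the mucosal protein Gkn2 and the smooth muscle gene Tagln. Of 6 chief cell markers 4 were measured, and Lipf had a probe without a value on any array. Of 8 squamous forestomach markers 7 were measured, and Trp63 had a probe without a value on any array. Gkn2 read an identical 21.25 on all 4 arrays, so it shows presence only. The log2 of the summed signal of 7 parietal cell markers lay between 20.86 and 20.87 in the congenic pools and between 20.97 and 20.98 in the wild-type pools. For 7 smooth muscle markers it was 20.51 and 20.50 against 20.66 and 20.67, so wild-type pool 1 did not stand apart from wild-type pool 2 in either. For 4 chief cell markers it was 21.41 and 21.46 in the congenic pools, 20.96 in wild-type pool 1 and 21.35 in wild-type pool 2, and the low sum came from Cblif, gastric intrinsic factor, which lay 1.17 below the other arrays on wild-type pool 1 (-1.17), where Chia1, Pga5 and Bhlha15 lay -0.067, -0.078 and -0.24 from them. Summed markers of the exocrine pancreas were higher in the congenic pools (19.27 and 19.21) than in the wild-type pools (17.61 and 17.56). The part of these cell types in the enzyme values was not tested.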

How the data were processed

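Digoxigenin-labelled cRNA was made from 1 microgram of total RNA with an Applied Biosystems kit, per the labels' protocols. The values deposited by the authors are log2 signals, 1 for each probe on each array. How they were normalized and when a cell was left blank is not stated in any source used here, and base 2 was inferred from the range of the values. No further normalization or filter was applied. Probes were named through the platform annotation (14411 with 1 symbol, 247 with several, 18354 with none), and chromosomes came from RefSeq (GRCm38.p6). A gene with several compared probes was given by the probe with the highest mean.

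The strains were compared over all 13475 probes with limma 3.58.1 in R 4.3.3 (lmFit and a trended eBayes, with 2 degrees of freedom from the residuals and 3.97 from the prior). Tests were two-sided, p-values were adjusted by Benjamini-Hochberg, and the threshold was 0.05. The fit was tested on simulated data. Ranges, array shifts and list medians are descriptions. Named were all members, genes of the other lists past the threshold, up to 3 per list by p, 11 further pathway genes where measured, and the 5 genes most like the widest-ranging member. Ppia, Hprt, Actb, Fbp2, Eno3, Gys1, Pvalb, Actn3, Trp63 and the chief cell markers were named after their values were seen. The members and lists were chosen with earlier results of these data known. Figures were drawn with matplotlib 3.10.9.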

Additional observations from a re-analysis of the deposited data

How the results depend on the processing

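The alternatives were chosen with earlier results known. Quantile normalization, median centring, leaving out probes under the median level and allowing 1 blank kept 0 of 7 glycolysis enzymes past the threshold and the sign of each. Quantile normalization and median centring hardly changed the deposited values. The Gapdh distance of wild-type pool 1 was -2.954 and -2.956 under them, beside -2.954 in the main fit. Both therefore say little about other ways of normalizing. The count over all probes was 64, and 35 with the replicate block, 20 without the mean-variance trend, 110 at an adjusted p of 0.10, and between 15 and 168 with 1 pool left out. Without wild-type pool 2 the low array stood alone for wild type, and the Gapdh and Hk1 differences were 3.02 and 1.67. The 1 call in the other pathway lists, Glo1, was 0 with the replicate block, without the trend and with any pool left out. The median enzyme difference of 0.16 lay between 0.026 and 0.29 with 1 pool left out. Signs turned without wild-type pool 1 for Hk1 (-0.017, up to 1.67 with another pool left out), Pgam1 (0.0084, down to -0.16) and Ldhb (0.017, down to -0.17), and without congenic pool 1 for Ldha (-0.049, up to 0.19). Fits without a pool assume that the lone pool varies like the others. Deviations of same-numbered pools correlated at -0.064 over 13475 probes, and the replicate block changed no enzyme call. Whether same-numbered pools shared a processing step was not tested. With 2 pools a strain, the number of arrays limits precision, and signal over background is unknown.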
